A study of Mus musculus with 9 samples.

Results

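Fibroblasts of the leptomeninges and of the perivascular spaces make most of the fibrillar collagen, proteoglycan and elastic fibre that the brain holds, since the tissue inside it is built on a different matrix of hyaluronan and lecticans. In these cells a collagen triple helix is folded by chaperones, trimmed outside the cell, cross-linked by lysyl oxidases and spaced by small leucine-rich proteoglycans. The same cells make retinoic acid, bind insulin-like growth factors and carry solutes between blood, cerebrospinal fluid and brain. A set of 47 genes with these roles was followed in the hippocampus of Angelman syndrome model mice, and all 47 were found among the 54532 genes of the count table. The genes were chosen by name as genes of meningeal and perivascular fibroblasts, but they were selected on results of these samples, in which several of them were lower after antimiR treatment, so the difference between the groups is given below as a description and no statement about the set rests on its p values.

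All 9 mice were N4 Ube3a m-/p+ mice, which carry a deletion of the maternal Ube3a allele and an intact paternal one, and which had been backcrossed towards 129Sv/Ev for 4 generations. On postnatal day 21 each mouse received an intracerebroventricular injection, and sound was used to evoke seizures on postnatal days 22, 24 and 26 before the brain was taken 24 h after the last test. In the Ant-134 group (n = 5) the injected oligonucleotide was a locked nucleic acid antimiR against miR-134, and in the Scr group (n = 4) it was a scrambled oligonucleotide. Each library came from the whole injected-side hippocampus of 1 saline-perfused mouse. The animals were of both sexes, the level of Y-linked genes entered only 1 alternative fit as a covariate, no wild-type or untreated group was analysed here, and only mice that lived through the seizure tests could give tissue.

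Gene counts summed to 28583298 to 38431058 per library in Ant-134 mice and to 31985959 to 41978113 in Scr mice. A floor of 3 counts was worth 0.0709 to 0.107 CPM, a count scaled to the normalised library total, which covers counting error only. All 47 genes passed the filter on low counts, and the lowest count of any of them in any library was 20, for Foxc2. Of the 19782 genes tested with edgeR's quasi-likelihood test, 0 had an adjusted p below 0.05 (Benjamini-Hochberg), the smallest being 0.0900, and 827 had an unadjusted p below 0.05.

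The defining genes of fibroblasts were present in every hippocampus. Per length and library, as FPKM, the 47 genes covered a wide range. Ptgds, the prostaglandin D2 synthase that leptomeningeal cells secrete into cerebrospinal fluid, was the most abundant at 282 ± 58.6 FPKM in the Scr group (SD, n = 4) and 217 ± 93.9 FPKM in the Ant-134 group (SD, n = 5). It was followed at a distance by Igfbp4 with a mean of 27.7 FPKM over all mice and Igfbp2 with 26.5 FPKM, a pair whose ranges overlapped, and then by Col6a1 with 18.6 FPKM. Mean levels were 10 FPKM or more for 7 genes, from 1 to 10 FPKM for 30 and below 1 FPKM for 10. The fibrillar collagens lay close together, from 2.31 FPKM for Col3a1 to 4.67 FPKM for Col5a1. At the low end stood Igf2 with 0.298 FPKM and Col6a3 with 0.340 FPKM. Several of the genes are also used by cells other than fibroblasts, since Pdgfra marks oligodendrocyte precursors, Ptgds is made by oligodendrocytes and choroid plexus, and Igfbp2 and Igf2 are made by choroid plexus. In bulk tissue, fewer cells of a type and less RNA per cell cannot be told apart.

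In the Ant-134 group 43 of the 47 genes had a lower fitted level than in the Scr group and 4 had a higher one. The median log2 fold change of the 47 was -0.22, where the median over all genes tested was 0.0026 and 48.8% of them were lower. The change was -0.5 or beyond for 7 genes, between -0.5 and -0.2 for 20 and between -0.2 and 0 for 16. An unadjusted p below 0.05 was reached by 11 of the 47 genes, all lower, beside 2.69% of all genes tested that were lower at this threshold, and by 0 that were higher, beside 1.49% of all genes. These were Igf2, Lum, Slc6a20a, Tbx18, Slc22a6, Col1a2, Fmod, Emp1, Col6a3, Ogn and Col1a1, and the first 3 kept it in all 9 fits that left out 1 mouse, the other 8 in 2 (Col1a1) to 8 (Tbx18) of them. The number of lower genes at this threshold was 17 without Ant-134 mouse 2, 7 without Ant-134 mouse 5, 6 without Ant-134 mouse 3 or Scr mouse 4, and 5 without Scr mouse 2. After Benjamini-Hochberg adjustment 0 of the 47 had a p below 0.05 in edgeR, as did 0% of all genes, and 0 did so in DESeq2, beside 0.0427% of all genes. In DESeq2 13 of the 47 were lower with an unadjusted p below 0.05, beside 1.66% of all genes. Both DESeq2 shares are of 37435 genes, without the filter on low counts, and the edgeR shares are of 19782. Every Ant-134 mouse was below every Scr mouse in 2 of the 47, Lum and Fbln2, which was so for 0.895% of all genes. The set was chosen on this contrast, so none of these shares is evidence about it.

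**Figure D1:**
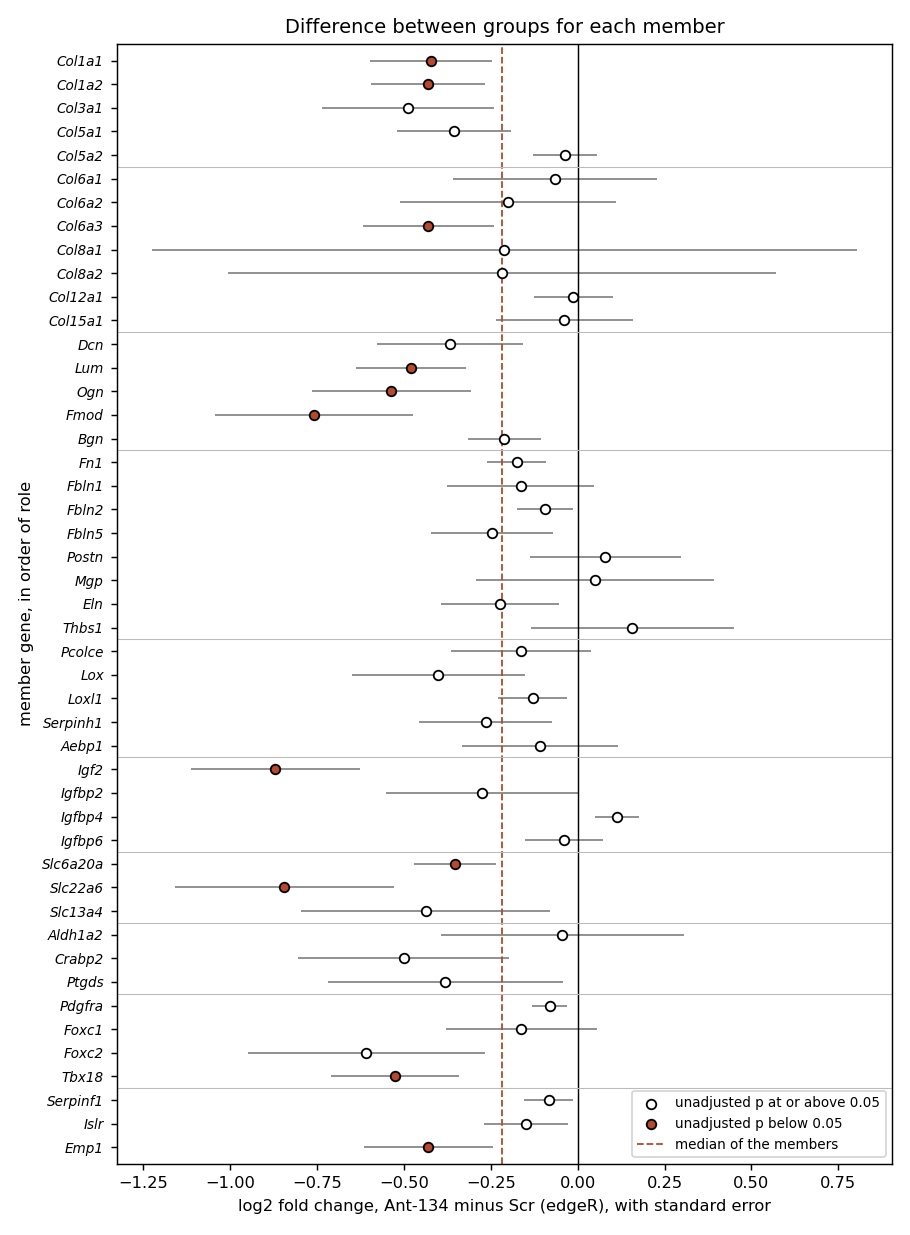
Each point is the log2 fold change of 1 member, Ant-134 minus Scr, from edgeR's fit (x axis), with its standard error as a bar, and the members are ordered by role (y axis). Most points lie left of 0 around the median of -0.22 (dashed line), the 11 filled points have an unadjusted p below 0.05, and Col8a1 and Col8a2 have the widest bars.

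Relative to the mean of the Scr mice on the log2 CPM scale, the median of the 47 genes was -0.23, 0.0036, -0.54, -0.53 and -0.21 in Ant-134 mice 1 to 5, and -0.16, 0.18, 0.0059 and -0.020 in Scr mice 1 to 4. Ant-134 mice 3 and 4 were the lowest and Ant-134 mouse 2 lay within the Scr range, so the groups overlapped through 1 mouse. Ant-134 mice 3 and 4 were each below the lowest Scr mouse in 37 of the 47 genes, Ant-134 mouse 1 in 23, mouse 5 in 24, and mouse 2 in only 7. Ant-134 mouse 2 was also above the highest Scr mouse in 11 genes and was the highest of its group in 26. Among the Scr mice, mouse 2 was the highest in 26 of the 47 genes and mouse 1 the lowest in 23. How many of all genes tested had such orders was not counted. The set was chosen on this contrast, so these counts describe the members only. Ant-134 mouse 2 and Scr mouse 2 also had the largest library total of their group and Ant-134 mouse 3 the smallest. With all libraries thinned to the smallest total, 42 genes were lower, Col12a1 no longer among them, and 12 of them had an unadjusted p below 0.05 in edgeR, with a median log2 fold change of -0.24.

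**Figure D2:**
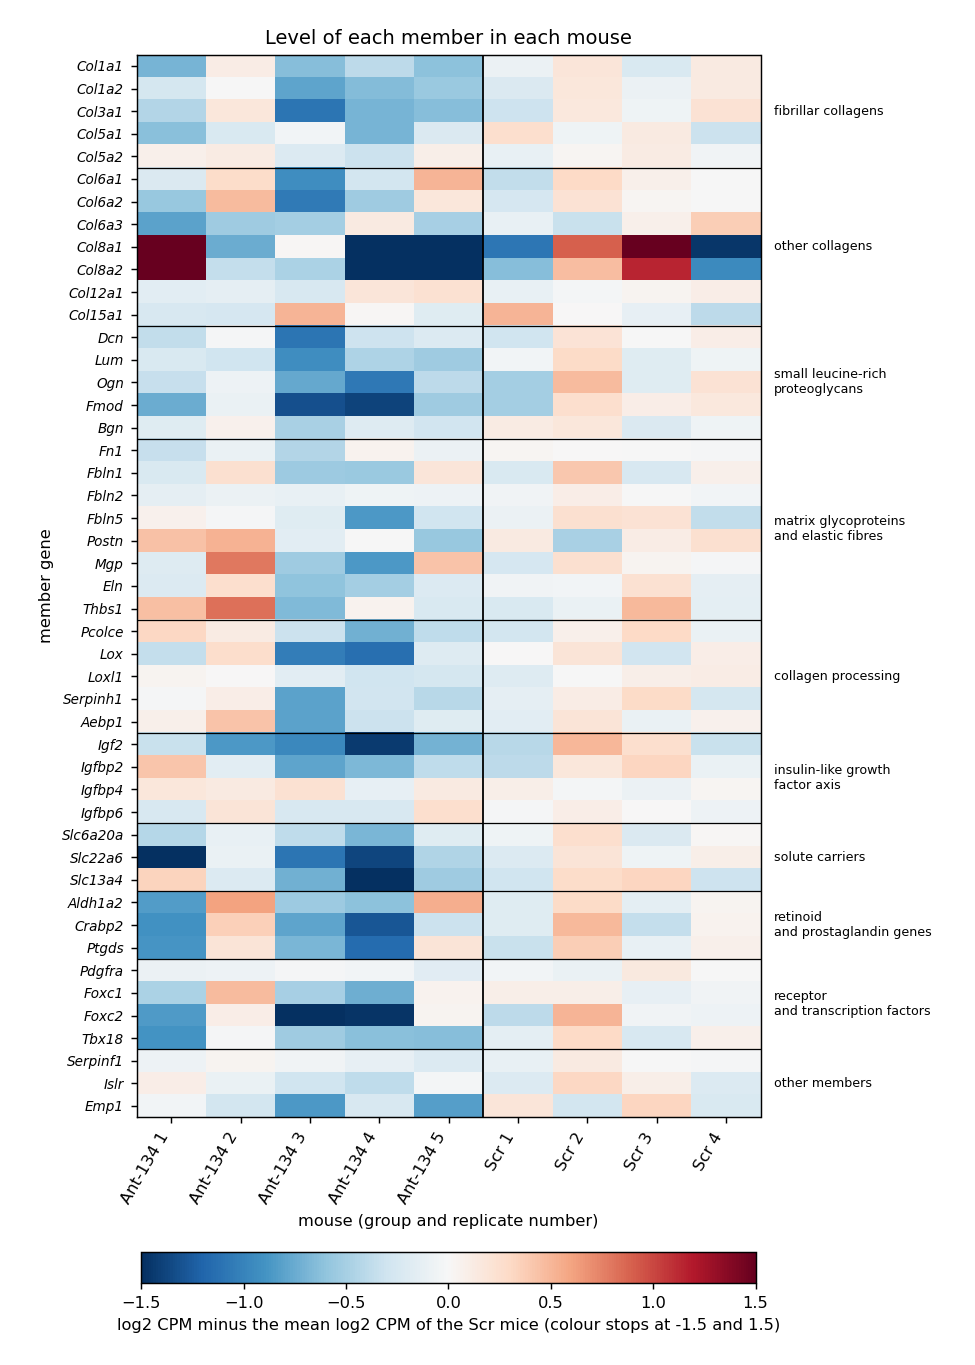
Colour shows log2 CPM minus the mean log2 CPM of the Scr mice for each member (rows, grouped by role) in each mouse (columns), with blue below and red above the Scr mean. Ant-134 mice 3 and 4 are below the lowest Scr mouse in 37 of 47 rows each and Ant-134 mouse 2 in 7, and the Col8a1 and Col8a2 rows hold the widest spread. Such counts were not made over all genes tested.

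The 5 fibrillar collagens, which form the rope-like fibres of meninges and vessel sheaths, were all lower in the fit, with a median log2 fold change of -0.42, and 2 of them had an unadjusted p below 0.05. Col1a2, which encodes the second chain of type I collagen, was 36.0, 42.9, 24.9, 27.5 and 29.2 CPM in Ant-134 mice 1 to 5 and 37.0, 48.5, 40.5 and 47.3 CPM in Scr mice 1 to 4. All Ant-134 mice except mouse 2 were below the lowest Scr mouse. The log2 fold change of Col1a2, given here and below with its standard error (SE), was -0.43 ± 0.16 (SE). Col1a1, its partner chain, was 18.3, 32.2, 19.1, 22.6 and 19.4 CPM in the Ant-134 mice and 28.1, 33.7, 25.3 and 32.7 CPM in the Scr mice, and again mouse 2 alone reached the Scr range. Its log2 fold change was -0.42 ± 0.18 (SE). Col3a1, which shares fibres with type I collagen in soft tissue, had the largest difference of the class, -0.49 ± 0.25 (SE). Col5a1, whose chain starts fibres and sets their width, was 29.2, 38.3, 43.8, 27.7 and 38.9 CPM against 53.7, 43.0, 49.5 and 36.1 CPM, an overlap of 3 Ant-134 mice with the Scr range. Its log2 fold change was -0.36 ± 0.16 (SE). Col5a2, the partner of Col5a1, had a fold change of -0.037 ± 0.091 (SE), or 0.025 without Ant-134 mouse 4, and its levels of 23.3 to 31.7 CPM in the Ant-134 group covered the Scr range of 26.9 to 31.7 CPM almost whole. Col5a2 lies 24614 bases from Col3a1 on chromosome 1, on the opposite strand.

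The 7 other collagens had a median log2 fold change of -0.20 and all were lower in the fit, but they did not vary together. Col6a1, the most abundant of them and a chain of the beaded filaments next to cell surfaces, was 71.4, 100, 43.7, 68.8 and 118 CPM in the Ant-134 mice and 64.4, 102, 87.6 and 82.7 CPM in the Scr mice. The Ant-134 range enclosed the Scr range, and the fold change of -0.064 ± 0.29 (SE) became 0.089 without Ant-134 mouse 3 and -0.24 without Ant-134 mouse 5. Col6a2, 85161 bases away on chromosome 10, had the same 3 lowest and 2 highest Ant-134 mice. Col6a3, the third chain, was 2.71, 3.27, 3.31, 5.17 and 3.34 CPM against 4.39, 3.74, 4.99 and 6.09 CPM. Here Ant-134 mouse 4 was high and the other 4 were below every Scr mouse, and the log2 fold change was -0.43 ± 0.19 (SE). Col12a1 and Col15a1, which bind fibres and basement membranes, had fold changes of -0.012 and -0.038. Of the 7, only Col6a2 and Col6a3 kept the same sign in every fit that left out 1 mouse.

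Col8a1 and Col8a2, the chains of the short-chain type VIII collagen, had the widest spread of the 47 genes in both groups. Col8a1 was 20.05, 2.94, 4.95, 1.38 and 1.49 CPM in the Ant-134 mice and 2.32, 9.13, 15.3 and 1.79 CPM in the Scr mice. Col8a2 was 15.4, 4.08, 3.77, 1.77 and 1.65 CPM and 3.35, 7.21, 11.6 and 2.69 CPM. In both genes Ant-134 mouse 1, Scr mouse 3 and Scr mouse 2 were the 3 highest of the 9 mice, in that order. Ttr, the transthyretin gene that marks choroid plexus epithelium, was 2417, 276, 638, 46.0 and 76.2 CPM in the Ant-134 mice and 241, 1006, 1932 and 56.9 CPM in the Scr mice, with the same 3 mice highest in the same order. The summed level of the 14 choroid plexus markers ranged from 60.6 to 2161 FPKM in the Ant-134 group and from 73.3 to 1681 FPKM in the Scr group, and none of the 14 was at 0. In the fit 6 of them were lower and 8 higher. Their median log2 fold change was 0.068, and -1.28 without Ant-134 mouse 1. Both Col8 chains had a log2 fold change near the median of the set, -0.21 and -0.22, with standard errors of 1.02 and 0.79. Without Ant-134 mouse 1 the fold change of Col8a1 was -1.42 and that of Col8a2 -1.13. Without Scr mouse 3 they were 0.46 and 0.26. The same 3 mice were the highest of 9 in 7 members in all, which were Col8a1, Col8a2, Fbln5, Igf2, Igfbp2, Slc13a4 and Islr, and Igfbp2 and Slc13a4 had them in the same order too. The part of choroid plexus in the levels of these genes was not tested. How many of all genes tested have these 3 mice highest was not counted.

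**Figure D3:**
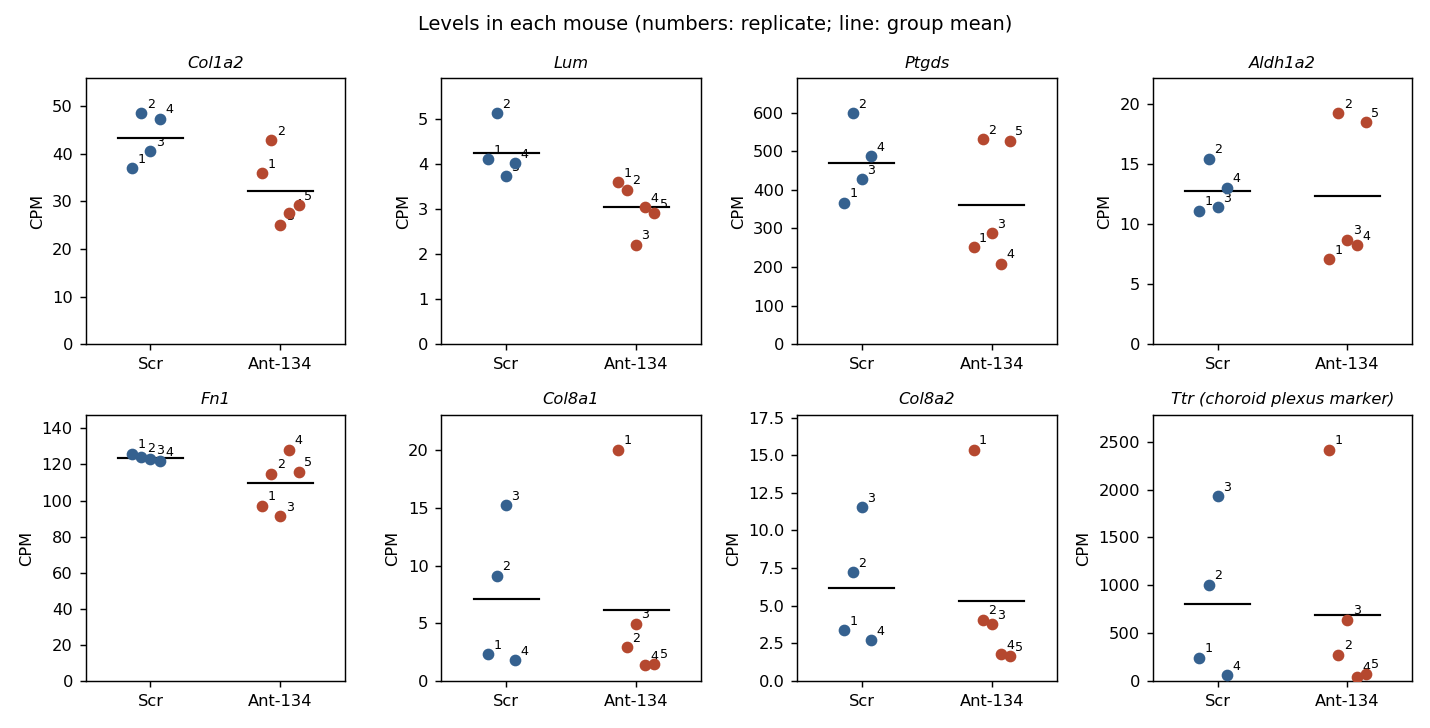
Each point is the CPM of 1 gene in 1 mouse (y axis, from 0), numbered by replicate, in the Scr (n = 4) and Ant-134 (n = 5) groups, with the group mean as a line. Lum shows no overlap, Col1a2 overlaps through mouse 2, Ptgds and Aldh1a2 divide the Ant-134 mice into 2 high and 3 low ones, Fn1 is even in the Scr mice, and Col8a1 and Col8a2 follow the choroid plexus gene Ttr.

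The 5 small leucine-rich proteoglycans, which coat collagen fibres and set their spacing, had the lowest median of the matrix classes, -0.48 on the log2 scale, and 3 of them had an unadjusted p below 0.05. Lum, lumican, was 3.60, 3.43, 2.21, 3.05 and 2.91 CPM in the Ant-134 mice and 4.11, 5.13, 3.73 and 4.01 CPM in the Scr mice. The groups did not overlap, although the highest Ant-134 mouse and the lowest Scr mouse were close, and the log2 fold change was -0.48 ± 0.16 (SE). The counts behind it were 62 to 217 per library. Dcn, decorin, lies 46984 bases from Lum on chromosome 10 and was the most abundant of the class, at 42.3, 54.1, 25.5, 44.0 and 47.4 CPM against 44.2, 63.1, 54.3 and 58.7 CPM. Of the Ant-134 mice, 3 were below the Scr range and 2 within it, and the fold change was -0.37 ± 0.21 (SE), or -0.23 without Ant-134 mouse 3. Fmod, fibromodulin, had the largest difference of the class, -0.76 ± 0.29 (SE), from 9.47 ± 3.57 CPM (SD, n = 5) and 16.1 ± 3.44 CPM (SD, n = 4). Ogn, osteoglycin, was 6.36 ± 1.65 CPM and 9.22 ± 2.69 CPM, a fold change of -0.54 ± 0.23 (SE). It overlaps Cenpp on the opposite strand, which held 339 counts in all against 2385 for Ogn. Whether the counting used strand is not stated in the sources used here. Bgn, biglycan, had a fold change of -0.21.

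The 8 glycoproteins and elastic fibre genes had a median of -0.13, with 5 lower and 3 higher in the fit and 0 with an unadjusted p below 0.05. Fn1, fibronectin, was 97.0, 115, 91.4, 128 and 116 CPM in the Ant-134 mice and 126, 124, 123 and 122 CPM in the Scr mice. The Scr mice were nearly equal, and all Ant-134 mice except mouse 4 were below them, with a log2 fold change of -0.17 ± 0.085 (SE). Fbln2, fibulin 2, which links elastic fibres to other matrix, was 8.84 to 9.27 CPM in the Ant-134 group and 9.31 to 10.4 CPM in the Scr group, ranges that did not overlap although the fold change was only -0.094, or -0.058 without Scr mouse 2. The 3 genes with a higher fitted level varied widely between mice. Thbs1, thrombospondin 1, which activates latent TGF-beta, was 10.1, 13.1, 4.70, 7.70 and 6.35 CPM against 6.33, 6.93, 10.4 and 6.68 CPM, and its fold change was 0.16 ± 0.29 (SE). Postn, periostin, was 5.06, 5.35, 3.35, 3.73 and 2.51 CPM against 4.11, 2.67, 4.05 and 4.42 CPM, with a fold change of 0.080 ± 0.22 (SE). Mgp, matrix Gla protein, an inhibitor of calcification, was 13.6, 26.7, 10.7, 8.55 and 20.8 CPM against 12.9, 18.3, 15.9 and 15.2 CPM, with a fold change of 0.049 ± 0.34 (SE). In each of the 3 the Ant-134 mice lay on both sides of the Scr mean, and the fold changes ran from -0.065 to 0.35 for Thbs1, from -0.062 to 0.21 for Postn and from -0.22 to 0.21 for Mgp when 1 mouse was left out.

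The 5 genes of collagen processing were lower in the fit with a median of -0.16, and 0 had an unadjusted p below 0.05. Serpinh1, the collagen chaperone of the endoplasmic reticulum, was 35.6, 38.5, 20.7, 29.4 and 27.0 CPM in the Ant-134 mice and 32.9, 39.0, 43.9 and 29.9 CPM in the Scr mice. The groups overlapped, and the log2 fold change was -0.27 ± 0.19 (SE), or -0.16 without Ant-134 mouse 3. Lox, lysyl oxidase, which cross-links collagen and elastin, was 3.08, 4.73, 1.92, 1.80 and 3.44 CPM against 3.95, 4.52, 3.23 and 4.22 CPM. Its 2 lowest values were those of Ant-134 mice 3 and 4, its highest was that of Ant-134 mouse 2, and the fold change was -0.40 ± 0.25 (SE). It was -0.63 without Ant-134 mouse 2, at an unadjusted p below 0.05 in edgeR, and -0.27 without Ant-134 mouse 4.

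Of the insulin-like growth factor axis, the ligand Igf2 had the largest difference of all 47 genes. It was 1.77, 1.22, 1.14, 0.819 and 1.36 CPM in the Ant-134 mice and 1.66, 3.14, 2.64 and 1.76 CPM in the Scr mice. All Ant-134 mice except mouse 1 were below the Scr range, and Scr mice 2 and 3 were above every Ant-134 mouse. The log2 fold change was -0.87 ± 0.24 (SE), an unadjusted p of 0.00285 and an adjusted p of 0.987 (edgeR's quasi-likelihood test, Benjamini-Hochberg), and it rested on 25 to 133 counts per library. The antisense gene Igf2os overlaps it and held 133 counts in all against 539 for Igf2, and whether the counting used strand is not stated in the sources used here. The binding proteins did not share the difference in size. Igfbp4, which holds the growth factors away from their receptor, was 133, 130, 139, 109 and 130 CPM against 125, 116, 111 and 121 CPM, so that all Ant-134 mice except mouse 4 were above every Scr mouse. Its fold change was 0.11 ± 0.063 (SE) with an unadjusted p of 0.0915 in edgeR, and it was higher in all settings tried. The p was 0.0403 without the filter, 0.0471 with Y-linked gene level as a covariate and 0.00336 without Ant-134 mouse 4. Igfbp2 and Igfbp6 had fold changes of -0.28 and -0.039. Igfbp2 was -0.50 without Ant-134 mouse 1, at an unadjusted p of 0.0349 in edgeR, and -0.16 without Scr mouse 3, and Igfbp6 ranged from -0.12 without Ant-134 mouse 5 to 0.0090 without Ant-134 mouse 1.

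The 3 solute carriers had a median of -0.44, and 2 of them had an unadjusted p below 0.05. Slc6a20a, a transporter of proline and other imino acids, was 12.9, 16.1, 13.4, 10.8 and 15.3 CPM in the Ant-134 mice and 16.7, 20.8, 15.0 and 17.6 CPM in the Scr mice. Ant-134 mice 1, 3 and 4 were below the Scr range and mice 2 and 5 in its lower part, with a log2 fold change of -0.35 ± 0.12 (SE). Slc22a6, the organic anion transporter OAT1, was 2.07, 7.12, 3.59, 2.95 and 5.63 CPM against 6.64, 8.75, 7.30 and 8.11 CPM. Every Ant-134 mouse except mouse 2 was below the Scr range, and the fold change was -0.84 ± 0.32 (SE). Slc13a4, a sulfate transporter, ranged from 6.35 to 23.7 CPM among the Ant-134 mice, with a fold change of -0.44 ± 0.36 (SE) that was -0.70 without Ant-134 mouse 1, at an unadjusted p below 0.05 in edgeR, and -0.25 without Ant-134 mouse 4.

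The genes of retinoid and prostaglandin synthesis divided the Ant-134 mice. Aldh1a2, which makes retinoic acid in the meninges, was 7.07, 19.2, 8.68, 8.25 and 18.5 CPM in the Ant-134 mice and 11.1, 15.4, 11.4 and 13.03 CPM in the Scr mice. Ant-134 mice 2 and 5 were above every Scr mouse and mice 1, 3 and 4 below every one, so that the fold change of -0.044 describes none of them. Ptgds was 251, 530, 287, 208 and 527 CPM against 367, 599, 427 and 487 CPM, with the same 3 mice below the Scr range and the other 2 inside it. Its fold change was -0.38 ± 0.34 (SE), or -0.56 without Ant-134 mouse 2 and -0.24 without Ant-134 mouse 4. Crabp2, which carries retinoic acid to its nuclear receptor, was 1.71, 4.11, 1.85, 1.31 and 2.55 CPM against 2.82, 4.49, 2.49 and 3.31 CPM, with a fold change of -0.50 ± 0.30 (SE), which was -0.83 without Ant-134 mouse 2, at an unadjusted p below 0.05 in edgeR, and -0.31 without Scr mouse 2. Across the 47 genes, Ant-134 mice 2 and 5 were the 2 highest of their group in 17, and in 13 of those 17 the other 3 Ant-134 mice were all below the lowest Scr mouse. The 13 were Col6a2, Dcn, Fmod, Eln, Lox, Igfbp6, Slc6a20a, Slc22a6, Aldh1a2, Crabp2, Ptgds, Foxc1 and Foxc2. This division was noticed after the values were seen and the mice carry no label that marks it. How often it occurs over all genes tested was not counted. Levels below the Scr mice were favoured by how the set was chosen.

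Among the regulators, Tbx18, a transcription factor of mural cells and meningeal fibroblasts, was 1.77, 3.25, 2.28, 2.13 and 2.12 CPM in the Ant-134 mice and 2.98, 4.07, 2.79 and 3.49 CPM in the Scr mice. All Ant-134 mice except mouse 2 were below the Scr range, and the log2 fold change was -0.53 ± 0.18 (SE). Foxc1 and Foxc2, forkhead factors that the meninges need in development, had fold changes of -0.16 and -0.61 with standard errors of 0.22 and 0.34. With 1 mouse left out, Foxc1 ranged from -0.39 (Ant-134 mouse 2) to -0.052 (Ant-134 mouse 4) and Foxc2 from -0.85 (Ant-134 mouse 2) to -0.40 (Scr mouse 2), with an unadjusted p below 0.05 in 1 and 2 of the 9 fits. Pdgfra, the receptor for platelet-derived growth factor A, was 70.1, 70.5, 73.7, 72.4 and 66.4 CPM against 72.5, 69.8, 82.4 and 74.1 CPM, a fold change of -0.081 ± 0.051 (SE) that was -0.030 without Scr mouse 3, the highest of the 9. Of the remaining members, Emp1, a membrane protein, was 5.91, 5.02, 3.35, 5.14 and 3.44 CPM against 6.89, 5.04, 7.63 and 5.18 CPM, with Ant-134 mice 3 and 5 lowest and a fold change of -0.43 ± 0.19 (SE). Serpinf1, pigment epithelium-derived factor, ranged from 16.2 to 19.2 CPM against 17.3 to 20.5 CPM, with a fold change of -0.083, or -0.035 without Scr mouse 2. Islr had a fold change of -0.15, or -0.034 without Scr mouse 2, but it overlaps Islr2 on the same strand, which held 54115 counts against 4785 for Islr, so its level is uncertain.

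Most members varied between mice more than the median tested gene of like abundance. Among members between 10 and 30 CPM the median SD of log2 CPM was 0.20 in the Scr group and 0.40 in the Ant-134 group, against 0.11 and 0.11 for all tested genes in that range. At 30 CPM and above it was 0.22 and 0.33 for the members against 0.070 and 0.078 for all genes. This was not particular to the members, since the 22 other leptomeningeal genes described below had median SDs of 0.20 and 0.40 and the 10 ependymal markers 0.29 and 0.48, against 0.24 and 0.38 for all 47 members. The SD exceeded the median of genes of the same abundance class in 38 of the 47 members in the Scr group and in 43 in the Ant-134 group. The exceptions with the smallest spread in the Ant-134 group were Fbln2 and Pdgfra, with SDs of 0.028 and 0.057. The SD was larger in the Ant-134 than in the Scr group in 40 of the 47. Over all genes tested the median SD was 0.13 in the Scr group and 0.15 in the Ant-134 group. The share of all genes with the larger SD in the Ant-134 group was not counted.

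**Figure D4:**
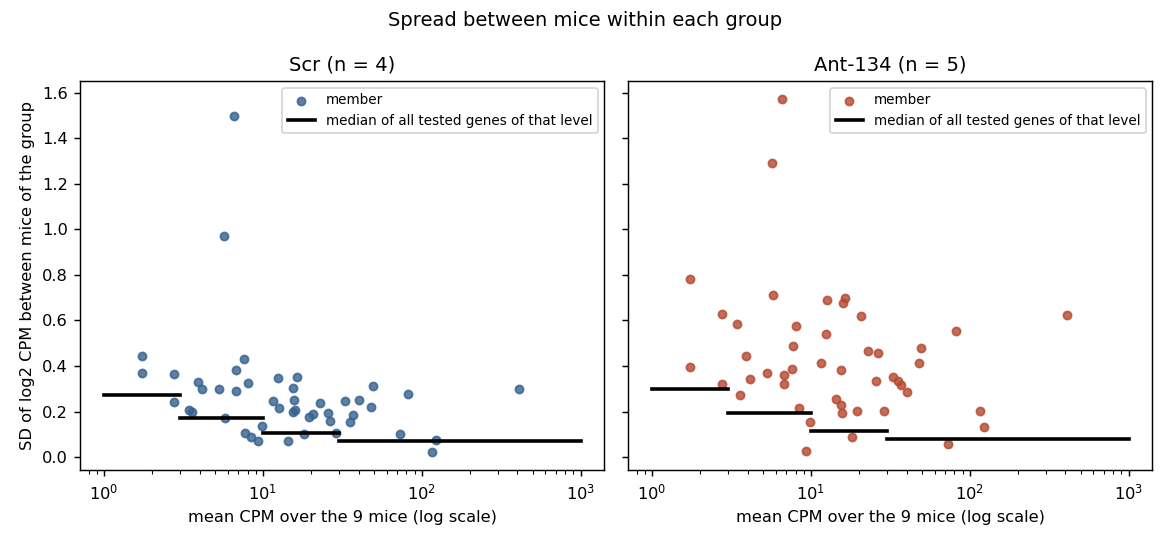
The SD of log2 CPM between the mice of a group (y axis) is plotted against mean CPM (x axis, log scale) for each member, with the Scr group (n = 4) on the left and the Ant-134 group (n = 5) on the right, and black lines give the median SD of all tested genes of that abundance. The members lie above the line in 38 of 47 cases on the left and 43 on the right, with Col8a1 and Col8a2 highest.

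The start sites were looked at for letters that the members share. The RefSeq promoter entries used here (250 bases before to 50 after the start, GRCm38.p6) covered 34 of the 47 members. They were not a full list of genes, so a missing entry does not mean that RefSeq holds none. Lox, Col1a1 and Fn1 are among the members without an entry, and their promoters were not searched. The TATA box letters TATAAA, searched on both strands as were the others, were in 14.7% of the 34 covered members. They were in 15.7% of all genes with an entry, which are the genes meant by all genes in this paragraph. CCAAT was in 35.3% against 41.1%, GGGCGG, the GC box, in 52.9% against 38.2%, and TGACTCA, an AP-1 motif, in 11.8% against 5.95%. A TATAAA between 40 and 20 bases before the start, on the strand of the gene, was in 2 of the 34 members, Postn and Igfbp4, and in 2.41% of all genes. Both are among the 3 members with the most positive fold change, which is a description of a pair of genes and no more. The 100 bases before the start are shown for these 2, and for the lower members with an unadjusted p below 0.05 that have a single listed start outside the annotated gene, with any of the 4 motifs on either strand in capitals.
Postn (chr3:54361007-54361106, GRCm38.p6, plus strand): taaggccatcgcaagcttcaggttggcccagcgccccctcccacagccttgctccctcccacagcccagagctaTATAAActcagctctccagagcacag
Igfbp4 (chr11:99041144-99041243, GRCm38.p6, plus strand): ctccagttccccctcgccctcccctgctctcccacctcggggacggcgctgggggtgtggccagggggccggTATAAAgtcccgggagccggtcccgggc
Slc22a6 (chr19:8617896-8617995, GRCm38.p6, plus strand): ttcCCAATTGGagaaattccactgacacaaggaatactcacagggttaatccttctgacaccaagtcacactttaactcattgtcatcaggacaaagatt
Tbx18 (chr9:87731261-87731360, GRCm38.p6, minus strand): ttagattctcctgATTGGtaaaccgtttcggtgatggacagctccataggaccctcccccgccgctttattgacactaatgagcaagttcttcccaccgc
Fmod (chr1:134037154-134037253, GRCm38.p6, plus strand): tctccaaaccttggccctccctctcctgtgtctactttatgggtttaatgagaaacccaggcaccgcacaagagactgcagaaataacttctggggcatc
Ogn (chr13:49607915-49608014, GRCm38.p6, plus strand): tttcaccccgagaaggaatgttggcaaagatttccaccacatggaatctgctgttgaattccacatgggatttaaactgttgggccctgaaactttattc
Col6a3 (chr1:90843972-90844071, GRCm38.p6, minus strand): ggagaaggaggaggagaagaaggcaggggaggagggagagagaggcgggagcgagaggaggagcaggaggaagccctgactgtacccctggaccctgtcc
In the windows of Slc22a6 and Tbx18 the capitals are CCAAT or its reverse complement, which overlap in Slc22a6, and in those of Fmod, Ogn and Col6a3 none of the 4 motifs was found.

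Other genes known from leptomeningeal cells, 22 that were not among the members, had a median log2 fold change of -0.16, and 20 were lower in the fit. Of the 22, 5 were lower and 0 higher with an unadjusted p below 0.05, and the median was -0.33 without Ant-134 mouse 2 and -0.25 without Scr mouse 1. Bmp6, a bone morphogenetic protein made by meningeal cells, was 2.24 ± 0.439 FPKM (SD, n = 5) against 3.18 ± 0.0492 FPKM (SD, n = 4), a fold change of -0.50 ± 0.12 (SE). Mrc2, the receptor that takes up collagen fragments, had a fold change of -0.45 ± 0.14 (SE). Of 24 enzymes that modify or trim collagen, 17 were lower, 2 of them with an unadjusted p below 0.05, and the median was -0.044. Among these, Crtap and Fkbp10, which help to hydroxylate and fold collagen chains, had fold changes of -0.28 and -0.26.

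Of 14 basement membrane genes 13 were lower, 4 with an unadjusted p below 0.05, with a median of -0.16, which was -0.10 without Scr mouse 3. Nid1, nidogen 1, had a fold change of -0.26 ± 0.093 (SE). Of the 13 receptors for collagen and fibronectin 5 were lower and 1 higher at that threshold, and Itga5, the fibronectin receptor chain, had a fold change of -0.49 ± 0.12 (SE) and Sdc4, syndecan 4, one of 0.15 ± 0.063 (SE). Of 18 genes of the TGF-beta pathway, a driver of matrix synthesis, 14 were lower and 4 higher in the fit, with 7 lower and 0 higher at an unadjusted p below 0.05. The ligand Tgfb1 was 1.76 ± 0.0860 FPKM (SD, n = 5) against 2.24 ± 0.209 FPKM (SD, n = 4), a fold change of -0.35 ± 0.087 (SE). Of 19 matrix proteases and inhibitors 10 were lower and 9 higher in the fit, with 2 lower and 0 higher at that threshold, and the median of -0.036 became 0.037 without Scr mouse 3. Mmp11, a stromelysin, had a fold change of -0.53 ± 0.17 (SE). The perineuronal and interstitial matrix, which neurons and glia make, had 7 of 14 genes lower and a median of -0.0064, with Tnc at -0.33 and Acan, the aggrecan of perineuronal nets, at 0.27.

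Markers of other cells that a dissected hippocampus can hold moved with the members in part. All 16 endothelial markers were lower in the fit with a median of -0.15, 4 with an unadjusted p below 0.05, and their summed level was 125 to 144 FPKM in the Ant-134 group and 132 to 169 FPKM in the Scr group. Without Scr mouse 2 the endothelial median was -0.085 and that of the mural cell markers -0.061 against -0.11 in all mice, and Itm2a, a membrane protein of these cells, had a fold change of -0.23 ± 0.071 (SE). Of 14 mural cell markers 12 were lower, 3 at that threshold, with sums of 61.5 to 70.5 FPKM against 66.1 to 88.3 FPKM, and Anpep had a fold change of -0.49 ± 0.12 (SE). All 10 ependymal markers were lower with a median of -0.25, 3 at that threshold, with sums of 11.8 to 26.7 FPKM against 17.3 to 25.997 FPKM, and Ccdc153 had a fold change of -0.89 ± 0.20 (SE). The ependymal median was -0.63 without Ant-134 mouse 1 and -0.13 without Ant-134 mouse 3. Of the 12 border macrophage markers 11 were tested, 7 were lower and 4 higher with a median of -0.040, and 3 of the lower ones reached the threshold, with sums of 6.81 to 8.59 FPKM against 8.05 to 10.4 FPKM, and the fold changes ran from -1.87 for Cd209f to 0.36. The border macrophage median was -0.15 without Ant-134 mouse 5, -0.12 without Ant-134 mouse 2 and -0.012 without Ant-134 mouse 4. The 5 erythrocyte genes went the other way with a median of 1.01, through Ant-134 mouse 3, whose sum was the highest at 509 FPKM against 55.2 to 115 FPKM in the Scr mice, and without which the median was 0.23. Markers of astrocytes, oligodendrocytes, oligodendrocyte precursors and hippocampal neurons had medians between -0.023 and 0.043, with 0 genes at the threshold. Of these, 4 of 10, 7 of 10, 3 of 7 and 10 of 12 were higher. Over all alternatives and left-out mice the median ran from -0.052 to 0.016 for astrocytes and from -0.098 to 0.12 for oligodendrocytes. It ran from -0.041 to 0.048 for oligodendrocyte precursors and from 0.012 to 0.072 for neurons. Relative to the Scr mean the neuronal median was 0.12 and 0.15 in Ant-134 mice 3 and 4, where the members were lowest, and -0.048 to 0.044 in the other 7 mice. The oligodendrocyte median ran from -0.57 in Ant-134 mouse 5 to 0.36 in Ant-134 mouse 1. All markers of these lists were above the floor of 3 counts in at least 1 library, except for 1 border macrophage gene. The part of these cells in the levels of the members was not tested, and how much of the meninges stayed on each hippocampus is not stated in the sources used here.

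**Figure D5:**
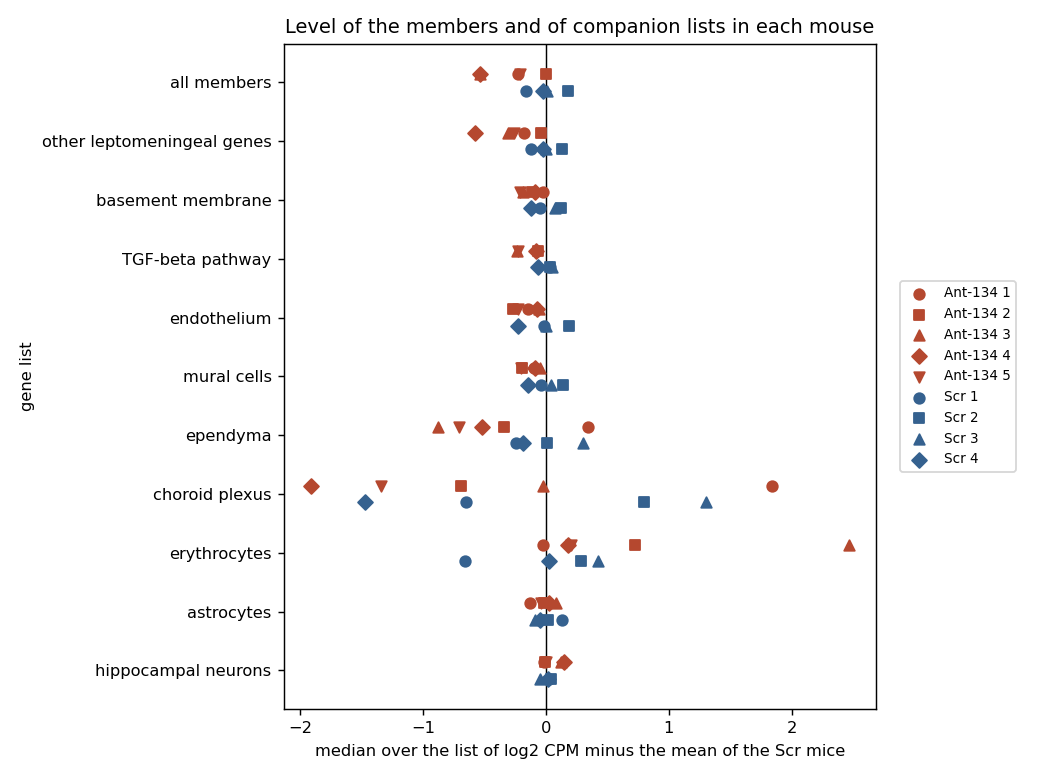
Each symbol is 1 mouse and gives the median over a gene list of log2 CPM minus the mean of the Scr mice (x axis), for the members and 10 companion lists (y axis), with Ant-134 mice in red and Scr mice in blue. The members spread from -0.54 to 0.0036 in the Ant-134 mice and from -0.16 to 0.18 in the Scr mice, while choroid plexus and erythrocyte genes spread far more and neuronal genes ran from -0.048 to 0.15, highest in Ant-134 mice 3 and 4.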

How the data were processed

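Hippocampal RNA of 5 Ant-134 and 4 Scr mice had been sequenced from poly-A-selected libraries in paired-end mode. Per the labels and the submitters' processing notes, the authors used CASAVA 1.8, aligned reads to GRCm38 with HISAT2 2.0.5 and counted them per gene with featureCounts 1.5.0-p3. They deposited the raw counts, and FPKM values, which scale counts to gene length and library total. No sources used here state whether counting used strand or whether PCR duplicates were removed, so the floors cover counting error only.

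The counts were fitted with edgeR 4.0.16 in R 4.3.3 (filterByExpr with a minimum count of 10, TMM, robust quasi-likelihood test, no covariate), as Ant-134 minus Scr over all genes kept, with Benjamini-Hochberg adjustment over all of them. CPM are from TMM-scaled libraries, and standard errors were derived from the F statistics. All pairs of libraries within a group differed beyond counting noise (chi-square per gene 8.37 to 20.6). Each sample was a separate mouse by its label.

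Alternatives were DESeq2 1.42.0, its size factors, library totals only, no filter, a stricter filter, no robust estimation, a replicate block, Y-linked gene level as a covariate, limma 3.58.1 on FPKM after log2 with a pseudocount of 1 or 0.1, and leaving out each mouse. Thinning to equal depth was chosen after seeing the data. A pseudocount shrinks the fold change of genes with a low FPKM.

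The members, the classes and the companion lists were chosen with earlier results of these data known. Named are, per class, the member with the highest FPKM and the one with the smallest p, the 6 members with the smallest p, the 3 with the most positive change and, from the companion lists, some of the 2 genes with the smallest p and the most abundant one of each. Other members named with values were chosen after their values were seen. Promoter sequences are from RefSeq (GRCm38.p6), and the entries used covered only some of the genes.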

Additional observations from a re-analysis of the deposited data

Results flagged for a closer look

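In 5 of 130 groups of values, counting each member and each list in each group of mice, the gap between 1 mouse and the rest of its group passed Dixon's critical value. If the values of a group are normally distributed this is set to happen in about 1 in 20 groups, or 6.5 here. Col6a3 was 5.17 CPM in Ant-134 mouse 4 and 2.71 to 3.34 CPM in the other Ant-134 mice. Col8a1 was 20.05 CPM and Col8a2 15.4 CPM in Ant-134 mouse 1, and the other Ant-134 mice had 1.38 to 4.95 CPM of Col8a1 and 1.65 to 4.08 CPM of Col8a2. Thbs1 was 10.4 CPM in Scr mouse 3 and 6.33 to 6.93 CPM in the other Scr mice. The median of the oligodendrocyte markers was -0.11 relative to the Scr mean on the log2 scale in Scr mouse 2 and 0.024 to 0.049 in the other Scr mice. The cause of these 5 values was not tested.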

How the results depend on the processing

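Over all alternatives and left-out mice the number of members lower in Ant-134 was 37 to 44 of 47 and their median log2 fold change -0.31 to -0.15, and 34 members were lower in every setting. The number of lower members with an unadjusted p below 0.05 was 11 in edgeR (2.69% of all genes), 13 in DESeq2 (1.66%), 9 and 8 with limma on FPKM with a pseudocount of 1 and 0.1 (3.01% and 3.04%) and 18 with the replicate block (2.36%). These shares are of the genes each fit tested, 19782 in edgeR with or without the block, 37435 in DESeq2 and 23670 with limma. Same-numbered Ant-134 and Scr libraries deviated with correlations of -0.11 to 0.0024 and unlike-numbered ones with -0.21 to 0.23. These values cannot tell whether the numbers mark a pairing of the mice, which the labels do not state. With 1 mouse left out, the number of lower members at that threshold was 5 (without Scr replicate 2) to 17 (without Ant-134 replicate 2). It was 6 without Ant-134 replicate 3 or Scr replicate 4 and 7 without Ant-134 replicate 5. The number of higher members at that threshold was 1 without the filter, 1 with Y-linked gene level as a covariate and 0 to 1 with 1 mouse left out, the gene being Igfbp4. The median of the other leptomeningeal genes was -0.33 (without Ant-134 replicate 2) to -0.13 (without Ant-134 replicate 3) with 1 mouse left out. The 11 members lower with an unadjusted p below 0.05 in the main edgeR fit kept their sign in all 9 fits that left out 1 mouse. Of the 47 members, 12 changed sign in at least 1 of these fits. Over all settings the choroid plexus median ran from -1.28 to 0.48. The cause of these differences was not tested. Depth limits the members with few counts, such as Foxc2 with 20 to 126 and Igf2 with 25 to 133 counts per library.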
